A study of Homo sapiens with 6 samples.

Results

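The enzymes that make and cleave arginine and those that turn ornithine into polyamines were followed across 6 RNA-seq libraries, 3 of FOXO3A knock-out cells and 3 of control cells. The set holds 10 genes (ASS1, ASL, ARG2, OAT, ODC1, SRM, SMS, AMD1, SAT1 and OAZ1), taken by name from a table of 47102 gene names. These genes were chosen by a rule that used the FPKM difference of ASS1 between the groups, so for these 10 genes the values, fold changes and intervals are a description and carry no test. All 10 have a row in the deposited table, 8 in a row of their own. ASL is listed together with CRCP and AC068533, and OAZ1 together with SPPL2B and AC005258, so those 2 rows give loci and not single genes.

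The knock-out libraries are labelled with the genotype FOXO3A knock-out, made with small guide RNAs, and the control libraries with the genotype WT. Both groups carry the name U-937, a monocytic model line that came from a lymphoma, and the cell type given is acute myeloid leukemia. They were grown in RPMI1640 with 15% fetal bovine serum and antibiotics. Whether the knock-out cells were a pool or a single clone, what guides the controls received, and whether replicate libraries stem from separate cultures, are details not stated, so p-values measure only a spread between libraries that may be technical. Values are FPKM (fragments per kilobase of transcript, scaled to library size), so levels can be compared between genes.

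Arginine is made from citrulline in a pair of steps: argininosuccinate synthase joins citrulline to aspartate, and argininosuccinate lyase splits the product into arginine and fumarate. Arginase cleaves arginine to urea and ornithine, which is either turned towards glutamate and proline by ornithine aminotransferase or decarboxylated to putrescine, the first polyamine. Spermidine synthase and spermine synthase then add aminopropyl groups that come from decarboxylated S-adenosylmethionine, and growing cells keep this pathway under tight feedback control because polyamines bind nucleic acids and are needed for translation. Many leukaemias and other tumours silence ASS1 and then depend on arginine from outside, which is the basis of treatment with arginine-degrading enzymes.

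The labels were checked against the same table, from libraries of 4.26 to 4.79 gigabases in knock-out and 4.37 to 5.71 gigabases in control cells, an estimate from steps in the low values. FOXO3 was at 3.93, 4.13 and 3.45 FPKM in knock-out and 4.22, 3.63 and 4.27 FPKM in control libraries (limma adjusted p = 0.732), a row for the whole gene that does not show small edits. Of 16 monocyte and macrophage markers in a row of their own 15 were below a mean of 1 FPKM, and the sum of the 16 was 3.67 to 4.33 FPKM in knock-out and 2.94 to 3.49 FPKM in control libraries, with CD14 at 0.298 FPKM or less and S100A8, MNDA and FCGR1A at the floor throughout. All 10 T lineage markers were tested and summed to 682 to 735 FPKM in knock-out and 604 to 681 FPKM in control libraries, with CD3E at 182 FPKM or more in every library. The data therefore go against a monocytic identity, and the values given here are those of the cells sequenced under that label. CD2 and TRAT1 rose among the T lineage markers (limma adjusted p = 0.0214 and 0.0116), and the 6 B cell markers summed to 29.8 to 36.8 FPKM in knock-out and 41.1 to 48.8 FPKM in control libraries, mostly CD79A, with 0 of 2 tested past the limma threshold and 2 below 0.05 without adjustment. Over all genes tested, 2.68% were past that threshold and 25.7% were below 0.05 without adjustment. Erythroid markers summed to at most 2.21 FPKM and epithelial and fibroblast markers to at most 2.31 FPKM in any library. The part of these shifts in the ASS1 and ARG2 differences was not tested, and in bulk RNA fewer cells that express a gene and less RNA per cell cannot be told apart.

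The start regions of the genes on which the results turn are shown first, as the 250 bases before a RefSeq transcript start (GRCh38.p14), read 5′ to 3′ on the gene's strand. ASS1 is on the plus strand of chromosome 9 (gene 130444929 to 130501274, GENCODE 29, GRCh38), and the window is chr9:130444711-130444960. ARG2 is on the plus strand of chromosome 14 (gene 67619798 to 67651720), with the window chr14:67619670-67619919. SRM is on the minus strand of chromosome 1 (gene 11054584 to 11060024), with the window chr1:11060019-11060268. All 3 genes begin inside the window by the GENCODE annotation, which starts further upstream than the RefSeq transcript start used here. Another RefSeq start of ASS1, whose window ends at 130444706, lies upstream of the GENCODE start. Capitals mark CACGTG, the E-box bound by MYC and related factors, in ASS1 and SRM, and they mark TGACGTCA, the full cyclic AMP response element bound by CREB and ATF factors, in ARG2.
ASS1: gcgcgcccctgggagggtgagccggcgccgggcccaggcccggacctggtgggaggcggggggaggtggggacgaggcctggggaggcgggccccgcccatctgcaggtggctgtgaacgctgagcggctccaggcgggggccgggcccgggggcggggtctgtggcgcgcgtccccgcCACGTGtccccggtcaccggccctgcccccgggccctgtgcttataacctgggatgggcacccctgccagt
ARG2: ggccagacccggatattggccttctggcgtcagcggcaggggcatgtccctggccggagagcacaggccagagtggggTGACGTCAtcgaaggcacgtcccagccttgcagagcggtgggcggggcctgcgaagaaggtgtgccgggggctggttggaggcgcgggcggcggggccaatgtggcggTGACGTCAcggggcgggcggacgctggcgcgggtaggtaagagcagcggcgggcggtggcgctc
SRM: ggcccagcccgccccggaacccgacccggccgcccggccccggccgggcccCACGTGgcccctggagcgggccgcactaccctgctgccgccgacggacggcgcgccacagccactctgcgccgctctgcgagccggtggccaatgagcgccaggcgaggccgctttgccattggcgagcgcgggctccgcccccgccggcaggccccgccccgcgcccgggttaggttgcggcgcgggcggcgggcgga

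The ASS1 window holds 1 E-box that begins 71 bases before the start, and the SRM window 1 that begins 199 bases before it. The table has a second ASS1 window, with 0 matches to CACGTG. Of the 14 windows in the table for the 10 genes, 3 hold CACGTG (1 of them at a second start of ODC1), against 6.34% of all 35116 windows of the same length. The ARG2 window holds TGACGTCA at 2 places, 172 and 64 bases before the RefSeq start, a motif found in 1.65% of all windows and in no other window of these genes. By the GENCODE annotation the nearer of these places lies inside ARG2 and the farther lies upstream of it. The forkhead core TGTTTAC, searched on both strands like the others, is in 0 of the 14 windows and in 2.98% of all windows, which says only that these letters are not within these 250 bases. A GC box (GGGCGG) is in 13 of the 14 windows, and 42.6% of all windows hold one. The 14 windows are not independent: the AMD1 windows starting at 110874534 and 110874535 nearly coincide, and ASS1 and ODC1 also have more than 1 window.

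Expression of the first enzyme, ASS1, was the most different of the 10. ASS1 was at 9.06, 8.91 and 9.11 FPKM in the knock-out libraries, against 30.0, 33.3 and 31.6 FPKM in the control libraries. The groups lay far apart, with the highest knock-out library 1.02 times the lowest. At the read pair numbers given below, sampling alone would be expected to spread libraries further, so this closeness does not measure precision. The means were 9.03 ± 0.104 FPKM in knock-out and 31.6 ± 1.61 FPKM in control libraries (SD, n = 3 each), so that the knock-out mean was 0.286 times the control mean. On the log2(FPKM + 1) scale, which understates the change of low values, the log2 fold change of ASS1 was −1.70 (SE 0.06, 95% interval −1.86 to −1.54), and 10 of the 11162 genes tested, those whose mean reached 1 FPKM, had a lower value. With 1 read pair taken as 282 bases and the mean length of the 10 annotated ASS1 transcripts, 947 bases, these levels correspond to about 130 to 147 read pairs in the knock-out libraries and 463 to 637 in the control libraries. That is a lower reading. With the longest transcript, 1973 bases, the numbers are 269.9 to 305.5 in knock-out and 965 to 1328 in control libraries.

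ASS1 has many processed pseudogenes, which could take some of its reads. Of 11 rows named as ASS1 pseudogenes, 6 were at the floor of the table in every library, and the highest value in any of them was 0.585 FPKM (ASS1P12). How reads shared between ASS1 and these copies were counted is not stated. Genes beside ASS1 on chromosome 9 did not pass the test. Before ASS1, NCS1 was at 7.27 ± 0.910 FPKM in knock-out and 7.29 ± 0.479 FPKM in control libraries, and GPR107 at 6.63 ± 0.147 FPKM in knock-out and 6.42 ± 0.619 FPKM in control libraries. Beyond it, FUBP3, an activator that binds far-upstream elements, was at 9.23 ± 0.0786 FPKM in knock-out and 8.40 ± 1.36 FPKM in control libraries, and EXOSC2, a subunit of the RNA exosome, at 11.6 ± 2.63 FPKM in knock-out and 12.2 ± 2.59 FPKM in control libraries (SD, n = 3 each; limma adjusted p between 0.504 and 0.972). FUBP3, the nearest of them, starts 78 kb beyond the end of ASS1. EXOSC2 starts 192 kb beyond that end, and NCS1 and GPR107 end 208 and 305 kb before the start of ASS1.

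The second enzyme of arginine synthesis, ASL, could not be read on its own. Its shared row was at 9.92, 3.34 and 10.3 FPKM in the knock-out libraries and at 3.33, 6.87 and 3.21 FPKM in the control libraries. The second knock-out library lay among the controls, and the groups overlapped. The log2 fold change of this row was 0.63 with a 95% interval of −0.41 to 1.67, which covers both a lower and a higher level. CRCP, named in the same row, encodes a subunit of RNA polymerase III, so the row's level cannot be assigned to ASL.

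ARG2, the mitochondrial arginase, was the other member that was lower in every knock-out library. It was at 7.79, 7.97 and 7.06 FPKM there, against 11.2, 13.3 and 12.3 FPKM in the control libraries. Every knock-out library lay below every control library, and the knock-out mean was 0.619 times the control mean (log2 fold change −0.62, SE 0.09, 95% interval −0.84 to −0.41). The mRNA of the first enzyme of arginine synthesis and that of an enzyme that cleaves arginine were thus both lower. ARG1, the liver arginase, was below 1 FPKM on average and was not tested.

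**Figure D1:**
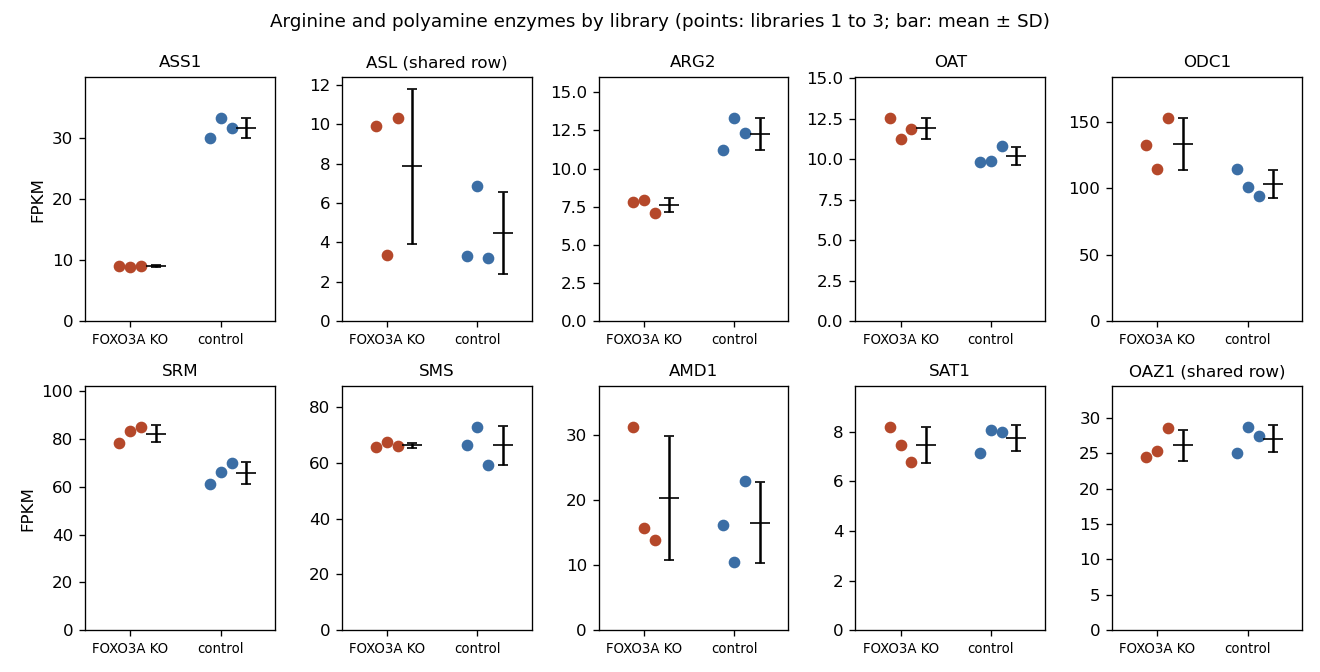
FPKM of each member in the 3 FOXO3A KO libraries (left in each panel) and the 3 control libraries (right), with points for libraries 1 to 3 and a bar for the mean ± SD, on axes that start at 0. ASS1 sits at 8.91 to 9.11 FPKM in knock-out and 30.0 to 33.3 FPKM in control libraries, ARG2 is also lower in every knock-out library, and ASL and AMD1 vary widely within both groups.

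Of the enzymes that draw on ornithine, OAT was higher in each knock-out library. OAT, the mitochondrial aminotransferase, was at 12.6, 11.3 and 11.9 FPKM in knock-out libraries and at 9.84, 9.90 and 10.8 FPKM in control libraries. The groups did not overlap, but the difference was small, 1.17 times the control mean (log2 fold change 0.21, 95% interval 0.03 to 0.38). With a trend on GC content and transcript length taken out, the log2 fold change of OAT was 0.12 (SE 0.08). ODC1, ornithine decarboxylase, makes putrescine and is commonly the rate-limiting enzyme of the pathway. It was at 132.6, 114.3 and 153.0 FPKM in the knock-out libraries and at 114.6, 100.7 and 93.9 FPKM in the control libraries. The second knock-out library lay just below the first control, so the groups touched, and the knock-out mean was 1.29 times the control mean (log2 fold change 0.36, 95% interval 0.06 to 0.67).

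SRM and SMS are the 2 aminopropyl transferases. SRM, spermidine synthase, was at 78.3, 83.2 and 85.0 FPKM in knock-out and at 60.9, 66.1 and 70.1 FPKM in control libraries. All knock-out libraries were above all controls, with a knock-out mean 1.25 times the control mean (log2 fold change 0.32, SE 0.07, 95% interval 0.14 to 0.50). SMS, spermine synthase, was at 65.6, 67.3 and 65.8 FPKM in knock-out libraries, inside the 59.2 to 72.8 FPKM spanned by the controls. Its log2 fold change was 0.01 with a 95% interval of −0.20 to 0.21. Within single libraries, the SMS to SRM ratio was 0.838, 0.809 and 0.774 in knock-out libraries and 1.09, 1.10 and 0.844 in control libraries, with the highest knock-out ratio just below the third control. The difference between the fold changes of SRM and SMS was not tested.

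AMD1, the decarboxylase that supplies the aminopropyl donor, was the most variable member in a row of its own. It was at 31.2, 15.7 and 13.9 FPKM in the knock-out libraries and at 16.2, 10.5 and 22.9 FPKM in the control libraries. One library in each group, the first knock-out and the third control, was high, and the groups overlapped. The 95% interval of its log2 fold change of 0.26 ran from −0.64 to 1.15.

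Next come genes whose products lower polyamines. SAT1, the acetyltransferase that marks spermidine and spermine for export or oxidation, was at 8.20, 7.46 and 6.77 FPKM in knock-out and at 7.13, 8.08 and 7.99 FPKM in control libraries. These groups overlapped (log2 fold change −0.04, 95% interval −0.27 to 0.18). OAZ1, the antizyme that binds ornithine decarboxylase and sends it to the proteasome, is made by a ribosomal frameshift that polyamines favour, so its mRNA level is not its protein level. The shared row that names it was at 24.5, 25.3 and 28.6 FPKM in knock-out and at 25.0, 28.7 and 27.4 FPKM in control libraries (log2 fold change −0.05, 95% interval −0.26 to 0.16). The ODC1 level relative to that row was 5.09 ± 0.494 in knock-out and 3.84 ± 0.645 in control libraries (SD, n = 3 each), with overlap between 4.53, the lowest knock-out ratio, and 4.58, the highest control ratio.

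**Figure D2:**
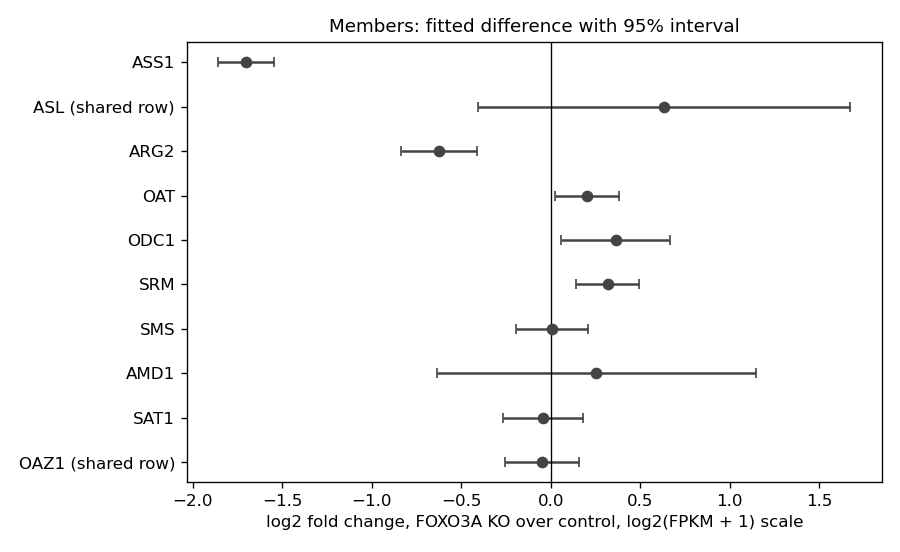
Log2 fold change of each member, FOXO3A KO over control, on the log2(FPKM + 1) scale (x axis), with the 95% interval of the limma fit as a bar. ASS1 at −1.70 and ARG2 at −0.62 lie below 0, SRM, ODC1 and OAT lie between 0.21 and 0.36, and the intervals of ASL and AMD1 are the widest.

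Counted over all members, each of which passed the filter of a mean of at least 1 FPKM, 2 of 10 (ASS1 and ARG2, both lower) were past an adjusted p of 0.05 in the limma fit, where 2.68% of the 11162 genes tested were past it, 1.38% higher and 1.30% lower. The groups did not overlap for 4 of 10 members (ASS1 and ARG2 lower, OAT and SRM higher), and they did not overlap for 32.3% of all genes tested, 17.7% higher and 14.7% lower. Since the set was chosen with these results known, neither count says anything about the set. Among all genes tested, 154 were called higher and 145 lower, and with libraries scaled to a common upper quartile 170 were higher and 260 lower. Over 15 alternative settings, again as a description, the log2 fold change of ASS1 was between −1.80 and −1.57 and that of ARG2 between −0.68 and −0.55. ARG2 was not past the limma threshold without any 1 of the 3 knock-out libraries, the second control or the third control. SRM was past it in 2 of those settings, under quantile normalization and with a trend on GC content and transcript length taken out. In these, 542 and 685 of all genes tested passed, against 299 without such changes.

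The members were also put in order of their mean level in each group. In knock-out libraries ODC1 was highest, followed without overlap by SRM and then SMS. The OAZ1 row and AMD1 came next and overlapped each other, and OAT and then ASS1 followed, each below its neighbour in every library. ASS1 stood 7th of 10 there by its mean, and the ASL row, ARG2 and SAT1 followed and overlapped in turn. The ASL row was above ASS1 in the first and the third knock-out libraries, and ASS1 stood 8th without the second. In control libraries ODC1 was again highest, SMS and SRM overlapped, and ASS1 stood 4th, above the OAZ1 row, AMD1, ARG2, OAT, SAT1 and the ASL row in every library. The ratio of ASS1 to the ASL row was 0.914, 2.67 and 0.882 in the knock-out libraries and 9.01, 4.84 and 9.83 in the control libraries, and the groups did not overlap. Since ASS1 was chosen for its difference between the groups, this separation is not a separate result. The row also cannot be assigned to ASL.

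The coding genes whose profile over the 6 libraries was most like that of ASS1, by the root mean square difference of log2(FPKM + 1) around each gene's own mean, were HIST3H2A (0.13), MAL (0.17), DNTT (0.20), RHOQ (0.27) and GFRA1 (0.30). The measure favours genes with the same difference between the groups, so all 5 were lower in the knock-out libraries. HIST3H2A, a histone gene that shares sequence with its relatives, was at 0.926 ± 0.0235 FPKM in knock-out and 4.47 ± 0.286 FPKM in control libraries. DNTT, the terminal transferase of V(D)J recombination, was at 13.4 ± 0.956 FPKM in knock-out and 58.6 ± 2.21 FPKM in control libraries (SD, n = 3 each).

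**Figure D3:**
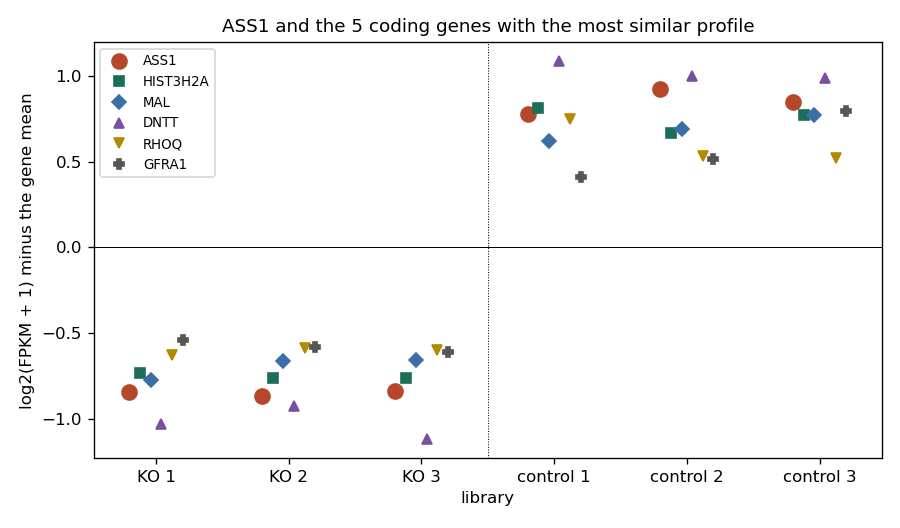
Log2(FPKM + 1) minus each gene's own mean (y axis) in the 3 FOXO3A KO and the 3 control libraries (x axis) for ASS1 and the 5 coding genes with the smallest root mean square difference from it. All 6 genes are below their mean in every knock-out library and above it in every control library.

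Other genes of the 2 pathways were taken from 6 lists of enzymes, carriers and regulators. Of 92 symbols, 89 had a row, 72 of them a row of their own, and 51 of these were tested. In the limma fit 0 of 51 passed an adjusted p of 0.05 in either direction, beside 2.68% of all genes tested. Without adjustment 13 of the 51 were below 0.05 (9 higher and 4 lower), and 25.7% of all genes were. The median log2 fold change of the 51 was 0.04, against 0.02 for all genes tested. A further 16 listed genes were tested in rows shared with other genes, of which 0 passed and 5 were below 0.05 without adjustment. Counts given below for single lists are of genes in a row of their own unless shared rows are named.

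Among 11 tested enzymes that use or make arginine, ornithine, citrulline, glutamate or aspartate, 6 were higher and 5 lower in value, 0 passed in the limma fit and 2 were below 0.05 without adjustment. GOT1, the cytosolic aspartate aminotransferase, was at 22.1 ± 0.445 FPKM in knock-out and 25.7 ± 1.26 FPKM in control libraries (limma adjusted p = 0.112; SD, n = 3 each). A further 13 enzymes were below a mean of 1 FPKM, among them CPS1, OTC, NAGS and ARG1 of the liver urea cycle, so most of that cycle was not expressed at a testable level. Of 7 arginine methyltransferases 0 passed and 1 was below 0.05 without adjustment, with PRMT6 at 7.14 ± 0.224 FPKM in knock-out and 5.99 ± 0.336 FPKM in control libraries and PRMT5 at 49.3 to 50.4 FPKM in knock-out and 52.5 to 57.1 FPKM in control libraries (limma adjusted p = 0.129 for PRMT6 and 0.253 for PRMT5).

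Of 7 tested carriers and sensors 0 passed in the limma fit, and 1 was below 0.05 without adjustment. SLC25A13, the mitochondrial carrier that exports aspartate for the ASS1 reaction, was at 1.80 ± 0.256 FPKM in knock-out and 1.08 ± 0.221 FPKM in control libraries (limma adjusted p = 0.0932). SLC7A6, which exchanges cationic amino acids, was at 4.42, 3.95 and 12.9 FPKM in knock-out and at 3.23, 3.17 and 3.09 FPKM in control libraries (adjusted p = 0.250), with its difference carried largely by the third knock-out library. SLC7A1, the main arginine importer of many cell types and named here after its values were seen, was at 26.9, 24.0 and 26.1 FPKM in knock-out and at 4.74, 26.8 and 30.4 FPKM in control libraries. The first control stood apart for SLC7A1, and the other libraries of both groups overlapped.

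Among 9 further polyamine genes 0 passed in the limma fit, and 3 were below 0.05 without adjustment. OAZ2, a second antizyme, was at 5.29, 2.06 and 2.69 FPKM in knock-out and at 7.47, 5.64 and 5.89 FPKM in control libraries (log2 fold change −0.82, SE 0.27, limma adjusted p = 0.129). EIF5A2, a form of the factor that carries the spermidine-derived hypusine, was at 2.11 ± 0.0764 FPKM in knock-out and 1.42 ± 0.252 FPKM in control libraries (adjusted p = 0.0936; SD, n = 3 each). Leaving out the first control brought EIF5A2 past the threshold, with a log2 fold change of 0.44. In that setting 926 of all genes tested passed, against 299 with all libraries.

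The methionine side of the pathway supplies S-adenosylmethionine and recycles methylthioadenosine, the by-product of both aminopropyl transferases, and 0 of its 9 tested genes passed in the limma fit, with 2 below 0.05 without adjustment. ENOPH1, an enzyme of methionine salvage, had the smallest p of all 6 lists. It was at 50.2, 50.1 and 50.4 FPKM in knock-out and at 41.0, 38.7 and 42.4 FPKM in control libraries (log2 fold change 0.30, SE 0.06, limma adjusted p = 0.0538). All knock-out libraries were above all controls, and ENOPH1 was past the threshold with only genes of at least 5 FPKM tested or after quantile normalization. In those settings 316 and 542 of all genes tested passed, against 299 without these changes. MTRR, methionine synthase reductase, was at 5.76 ± 0.325 FPKM in knock-out and 4.55 ± 0.562 FPKM in control libraries (adjusted p = 0.144; SD, n = 3 each). MTAP, the phosphorylase that clears methylthioadenosine, was close to the floor in both groups, at no more than 0.00686 FPKM in any library and at the floor in the second and the third knock-out libraries.

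**Figure D4:**
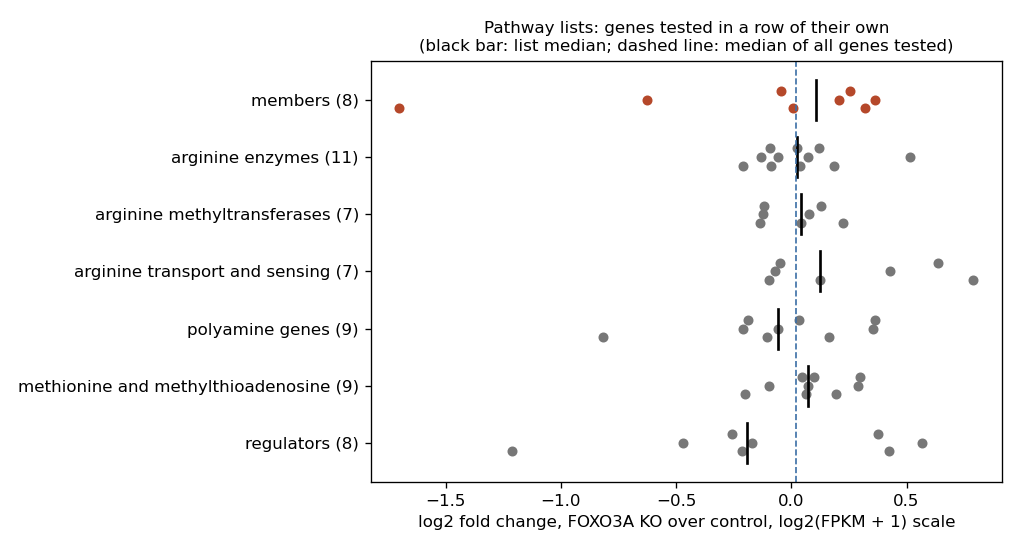
Log2 fold change, FOXO3A KO over control, on the log2(FPKM + 1) scale (x axis) for members and listed genes tested in a row of their own (number in brackets), with a black bar for the median of each list and a dashed line for the median of all genes tested, 0.02. ASS1 at −1.70 has the lowest value shown, and the lowest of the listed genes is MYC at −1.21.

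Of 8 factors known to act on ASS1, ODC1 or SAT1 transcription and tested in a row of their own, 0 passed in the limma fit. Without adjustment 4 of the 8 were below 0.05, beside 25.7% of all genes tested. A further 2, HIF1A and NFE2L2, were tested in shared rows, where 0 passed and 2 were below 0.05 without adjustment. The row that names HIF1A was at 12.5 ± 1.21 FPKM in knock-out and 7.72 ± 1.58 FPKM in control libraries (limma adjusted p = 0.0647). For the NFE2L2 row the limma adjusted p was 0.102. ATF4, the main factor of the amino acid response, was at 234.3 ± 6.92 FPKM in knock-out and 280.2 ± 14.5 FPKM in control libraries (SD, n = 3 each; log2 fold change −0.26, SE 0.06, limma adjusted p = 0.0754), and it was past the threshold with the trend on GC content and length taken out (log2 fold change −0.20). With that trend taken out 685 of all genes tested passed, against 299 without that step. The row of MYC, which activates ODC1 in many cell types, was at 64.7, 2.77 and 2.44 FPKM in knock-out libraries and at 2.25, 66.8 and 46.9 FPKM in control libraries (adjusted p = 0.655). Both groups held high and low values of this row, 26.5 times apart in knock-out and 29.8 times apart in control libraries. How transcripts were assigned to the MYC and SLC7A1 rows is not stated, so such jumps may belong to the rows and not to the levels of the genes.

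A spread of at least 4 times between libraries of one group was found in 2.85% of all genes tested and in 0 of the 10 members, while a spread of at least 2 times was found in ASL and AMD1. The high libraries were not the same for each row: the first knock-out and the third control for AMD1, the first and the third knock-out and the second control for the ASL row, and the first knock-out with the second and the third control for MYC.

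**Figure D5:**
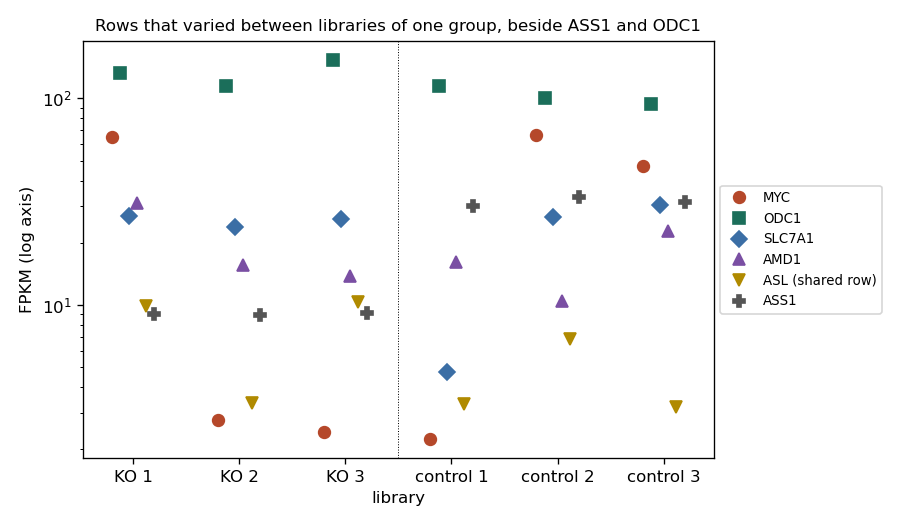
FPKM on a log axis (y axis) in the 3 FOXO3A KO and the 3 control libraries (x axis) for MYC, SLC7A1, AMD1 and the shared ASL row, with ODC1 and ASS1 for comparison. MYC is at 2.44 to 64.7 FPKM in knock-out and 2.25 to 66.8 FPKM in control libraries, whereas ASS1 is within 1.02 times in knock-out and 1.11 times in control libraries.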

How the data were processed

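RNA of 6 libraries, made with an mRNA kit per the labels' protocols, was sequenced, and the values analysed are FPKM deposited by the authors, 1 column per library, per the file headers. The submitters' processing notes name Cufflinks 2.1.1, HTSeq and Bowtie 0.12.9 without their roles, and hg38 as build; strand and shared reads are not mentioned. The table has 56418 rows, of which 20432 carry identifiers of merged assemblies, and 60.7% to 62.4% of the values per library stand at a floor of 0.0001 FPKM, taken as 0. Repeats with identical values were dropped (4865) and the other rows of a name summed, and each of the 10 members has 1 row.

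limma 3.58.1 (R 4.3.3) was fitted to log2(FPKM + 1) of 11162 names with a mean of at least 1 FPKM, with a single term for group, a trend of variance on the mean and Benjamini-Hochberg adjustment of the two-sided p-values at 0.05, after a check on simulated data. The members and lists were chosen with earlier results of these data known. Named genes are the members, the 5 profiles nearest to ASS1, its neighbours with a mean of at least 1 FPKM, up to 2 a side, pseudogenes of members, FOXO3, MYC and the 2 smallest p-values of each list; some genes that the rule names are not reported here. Low values of rows with 1 transcript came in steps, read as 1 aligned base, which put the depth at 4.26 to 4.79 gigabases in knock-out and 4.37 to 5.71 gigabases in control libraries; this reading is an estimate, and as FPKM holds no counts no count model was run. Positions are from GENCODE 29, promoters from RefSeq (GRCh38.p14). Tables and plots were made in Python 3.11.15 with matplotlib 3.10.9 and pandas 2.3.3.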

Additional observations from a re-analysis of the deposited data

How the results depend on the processing

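The log2 fold change of ASS1 was −1.57 with a trend on GC content and transcript length taken out, −1.80 with a pseudocount of 0.1, and −1.74 to −1.67 with each library left out in turn. With a library left out the count of pathway genes past the threshold was 0 to 1 and that of members, which were chosen with the ASS1 difference known and show no stability by it, 1 to 2. The pathway count was 1 with that trend taken out (ATF4), with a mean of at least 5 FPKM (ENOPH1) and after quantile normalization (ENOPH1). Over all genes, 685 passed with that trend taken out, 193 with no filter on low values and 542 after quantile normalization, against 299, and 68 to 926 with a library left out, where 926 is the count without the first control and 68 that without the second or the third knock-out library; the cause was not tested. The rank of ASS1 among members in knock-out libraries was 7 to 8 with a library left out, 8 without the second knock-out library. Libraries with the same number were not taken as pairs, since their deviations from the group means correlated at 0.10, −0.04 and 0.02; with a replicate block 27 genes and 1 member (ASS1, not ARG2) passed. The ratio of ASS1 to the shared ASL row in knock-out libraries was 0.898 without the second knock-out library, against 1.49. Depth limits the reading of the lowest rows, such as MTAP and the pseudogenes.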

Other observations

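The second control library had the lowest mean correlation with the other group over the genes tested, 0.950, against 0.958 to 0.969 for the other libraries, and without it the log2 fold change of ASS1 was −1.67. The first control had the highest, 0.969, close to its mean correlation of 0.971 with the other controls. Taken over genes, none of them an independent replicate, log2 fold changes had a Spearman rho of −0.388 with transcript GC content, and the mean GC content of the transcripts was 56.8% in the ASS1 row, 48.1% in the ARG2 row and 63.3% in the SRM row. The lowest among the members were 38.2% in the AMD1 row and 42.8% in the OAT row. With a trend on GC content and length taken out, the log2 fold change was −0.04 for AMD1, 0.12 for OAT and 0.51 for SRM.

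MTAP lies on chromosome 9 from 21802543 to 21937651 (GENCODE 29, GRCh38), and its neighbours CDKN2A and CDKN2B, named after their values were seen, were at no more than 0.0655 FPKM in any library. SRM and SMS, whose reactions release the MTAP substrate, were at 59.2 FPKM or more in all 6 libraries.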
